A study of Danio rerio and Oryzias latipes with 22 samples.

Results

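Whole zebrafish ventricles at 3 days post-injury (3 d.p.i.) were compared with uninjured ventricles, gene by gene and with the blood cells left in. Of the 22 samples of the series, 7 entered: 3 at 3 d.p.i. and 4 uninjured, chosen by their labelled species and treatment. Both groups were adult wild-type Tübingen zebrafish, 6 to 18 months of age by the study's husbandry notes. In the injured group, a copper probe of 0.5 mm diameter, cooled in liquid nitrogen, had touched the ventricle apex for 23 s. The uninjured group is labelled only as uninjured, so effects of the chest opening and anesthesia cannot be told apart from those of the freezing. Hearts were taken, atrium and bulbus arteriosus were cut off, residual blood was pressed out, and the ventricle was digested with liberase before 10x Genomics single-cell capture. The sources used here do not give the number of ventricles in a sample, so p-values measure only the spread between these samples.

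A zebrafish heart answers a freezing injury in overlapping phases. Dead tissue is cleared by neutrophils and macrophages, fibroblast-like cells of the epicardium and endocardium lay down a collagen-rich matrix, and surviving cardiomyocytes next to the wound revert to a less mature state and divide. The matrix is later removed, which is what sets this heart apart from the scarring heart of mammals. Nucleated erythrocytes, the red cells of fish, and thrombocytes, the fish counterpart of platelets, enter the tissue through the damaged vessels.

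Unique molecular identifiers (UMIs, each standing for 1 captured RNA molecule) were summed per sample over barcodes with at least 200 genes and at most 40% of UMIs in mitochondrially encoded genes. These sums cover 24001 barcodes, 13867 from uninjured and 10134 from injured ventricles, and hold 14475090 to 27177196 UMIs per sample over 28107 gene symbols shared by all zebrafish gene lists. A sum over all cells is a bulk measurement, and in it fewer cells of a type and less RNA per cell cannot be told apart. Levels are given as CPM, the UMIs of a gene per 1000000 UMIs of a library, scaled by the trimmed mean of M values (TMM). No pair of libraries shared more than 6 barcodes.

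Uninjured replicates 1 and 2 stood apart from the other 5 libraries. Their files came from an earlier version of Cell Ranger and list 32520 genes under Ensembl identifiers, whereas uninjured replicates 3 and 4 and all 3 injured libraries came from a later version with another list of 36351 genes. The first principal component, with 55.7% of the variance, separated replicates 1 and 2 from all other libraries, and the second, with 28.5%, separated uninjured replicates 3 and 4 from the injured libraries. Across genes, log2 CPM correlated at r = 0.975 between uninjured replicates 1 and 2, at 0.956 between replicates 3 and 4, and at 0.787 to 0.793 between these pairs. No injured library came from the earlier version, so the comparison was also fitted against uninjured replicates 3 and 4 only. A value named below as being against replicates 3 and 4 comes from that second fit, which shares its 3 injured libraries with the first.

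**Figure D1:**
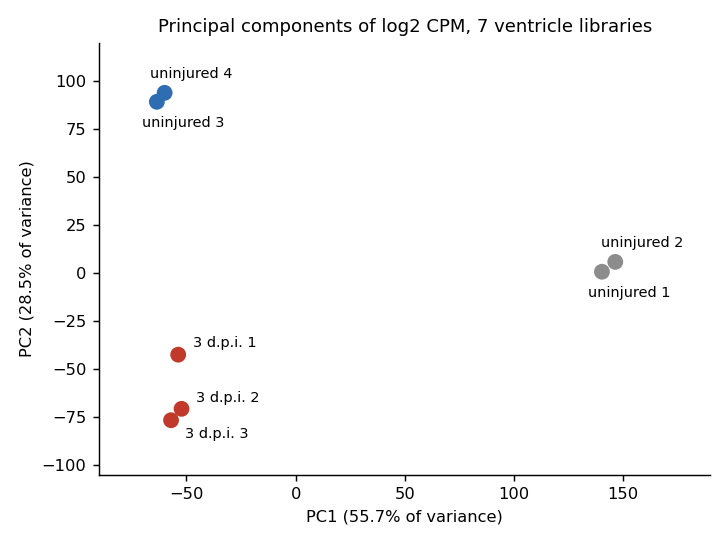
Principal components 1 (x axis) and 2 (y axis) of log2 CPM in the 7 libraries, each point a library (grey and blue, uninjured; red, 3 d.p.i.). Uninjured replicates 1 and 2 lie at 140.3 and 146.4 on the first axis and the other 5 libraries between -63.6 and -52.3.

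At 3 d.p.i., genes of the scar matrix and of cell division were higher, and a few genes of the contractile apparatus and of the heat shock response were lower. Of 15939 genes tested with edgeR's quasi-likelihood test against all 4 uninjured libraries, 507 (3.18%) were higher and 258 (1.62%) lower at an adjusted p under 0.05. In each of these 765 genes the CPM of the 3 injured libraries and of the 4 uninjured libraries did not overlap, which held for 2510 (15.7%) of all tested genes on the higher side and 1933 (12.1%) on the lower side. Against replicates 3 and 4 only, 2826 (16.6%) of 17042 genes were higher and 2569 (15.1%) lower. Of the calls against all 4 libraries, 505 of the higher (3.17% of the genes tested) and 257 of the lower (1.61%) were also called against replicates 3 and 4, and 0 were called in the opposite direction. With DESeq2 the split turned, with 1361 higher (7.04%) and 1433 lower (7.41%). Each library carried weight: leaving out 1 library at a time left 0 to 110 higher and 0 to 21 lower calls, and leaving out uninjured replicate 4, injured replicate 2 or injured replicate 3 left 0 of either in edgeR, where 1376 to 1685 genes were higher and 1124 to 2060 lower at an unadjusted p under 0.05. DESeq2 was not run on these smaller sets.

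**Figure D2:**
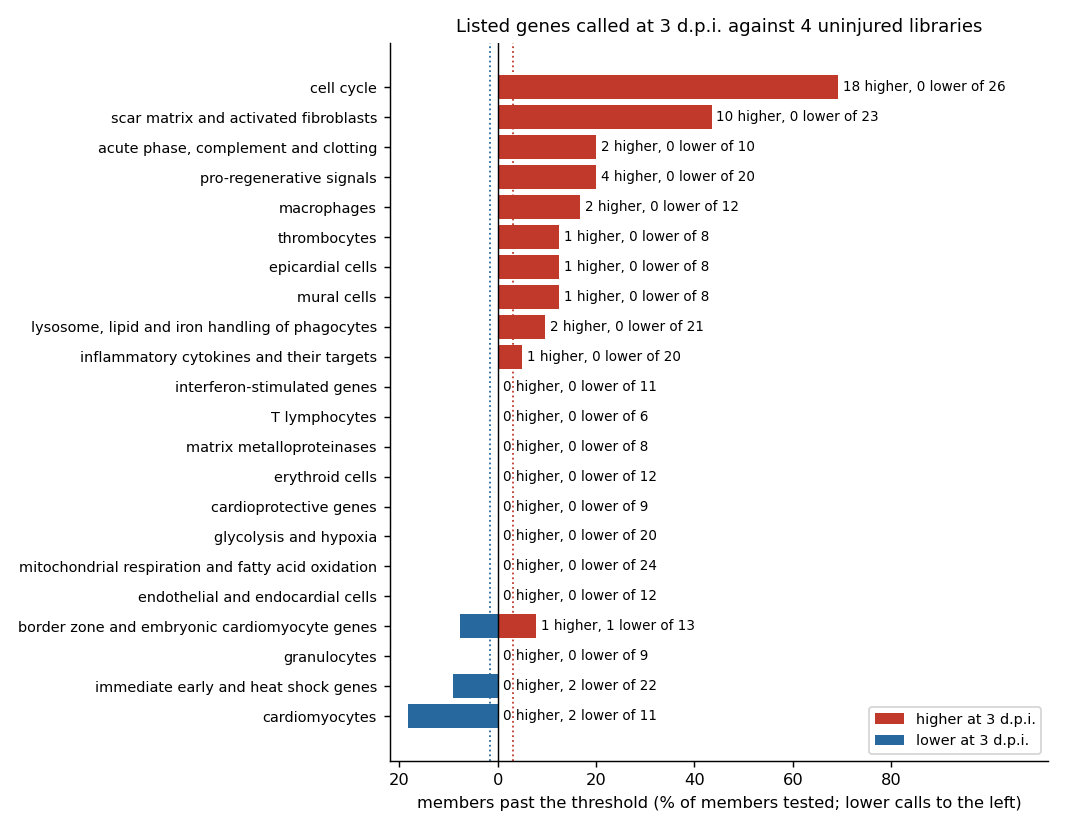
Share of tested members of each gene list that passed the threshold at 3 d.p.i. against 4 uninjured libraries (x axis, percent; red, higher; blue, lower to the left), for lists with at least 6 tested members (y axis); dotted lines mark the shares over all genes, 3.18% and 1.62%. Cell cycle genes (18 of 26) and scar matrix genes (10 of 23) have the longest bars to the right, and cardiomyocyte markers (2 of 11) the longest to the left.

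Many matrix genes rose. Of 23 tested genes of the scar matrix and of activated fibroblasts, 10 were higher and 0 lower, with a median log2 fold change of 2.37, or 3.08 against replicates 3 and 4, beside -0.03 and 0.02 over all genes. The gene fn1a, which encodes fibronectin, an early provisional matrix protein, was at 5.59, 9.98, 14.3 and 10.4 CPM in the uninjured libraries and at 299.99, 762 and 396 CPM in the injured ones. Every injured library lay far above every uninjured one, and the log2 fold change was 5.59 ± 0.50 (SE, adjusted p = 0.0208). The gene col12a1b encodes a chain of type XII collagen, which binds the surface of collagen fibrils. The level of col12a1b was 0, 0.31, 4.63 and 2.39 CPM before injury and 97.1, 281 and 240.5 CPM after it (log2 fold change 6.76 ± 1.29, adjusted p = 0.0365), and its paralog col12a1a rose by 4.79 ± 0.58 (adjusted p = 0.0219).

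Genes of fibrillar collagen started from a higher level. The gene col1a1a, for a chain of type I collagen, was at 158, 235, 73.9 and 64.1 CPM in uninjured and at 646, 1470.2 and 1287 CPM in injured ventricles (log2 fold change 3.097 ± 0.55, adjusted p = 0.0323). The other type I chains col1a2 (2.90, adjusted p = 0.0408) and col1a1b (2.85, adjusted p = 0.0495) and the type V chain col5a2a (1.99, adjusted p = 0.0222) were also called higher. Further calls were lum, the collagen-binding proteoglycan lumican (5.04 ± 0.71), loxl2b, an enzyme that cross-links collagen (2.68 ± 0.36), and postnb, the matricellular protein periostin (4.59 ± 1.02). The level of postnb was uneven among injured libraries, at 52.6, 598 and 142 CPM.

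Over the whole list, 22 members had a positive log2 fold change and 1, col4a2, a negative one. At an unadjusted p under 0.05, 17 were higher and 1 lower. Against replicates 3 and 4, 16 were called higher and 1 lower. The basement membrane chain col4a2 was at 190, 212, 64.6 and 62.1 CPM in uninjured and at 34.1, 34.3 and 22.8 CPM in injured ventricles (log2 fold change -2.12, adjusted p = 0.0708), and it was called lower against replicates 3 and 4 (-1.04, adjusted p = 0.0214). Tenascin C, encoded by tnc, was at 0.81, 124 and 14.7 CPM in the injured libraries and at most 1.30 CPM in the uninjured ones (adjusted p = 0.0715). Of 8 tested matrix metalloproteinases, enzymes that cut matrix, 0 passed in edgeR in either direction, 4 were higher at an unadjusted p under 0.05, where 12.4% of all genes were, and 2 were higher by DESeq2.

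Outside the lists, 254 called genes met the rule for naming (a mean of at least 20 CPM in the higher group, no overlap of the groups, the same sign against replicates 3 and 4, and a symbol without a colon that does not start with LOC, XLOC, CABZ or, before a digit, CU, CR, BX, FO, FP or AL), 141 higher and 113 lower. Of the 10 with the largest rise, several encode secreted matrix or its processing. The minor fibrillar collagen genes col11a1a and col11a1b were at most at 1.30 CPM in any uninjured library. The first was at 9.71, 120.5 and 32.0 CPM in the injured libraries, a log2 fold change of 8.18 ± 1.04, and the second at 21.2, 75.5 and 50.2 CPM, a change of 6.62 ± 1.199. Other secreted factors followed the same pattern: adamtsl7, a relative of the ADAMTS proteases, was at 18.6, 18.9 and 28.4 CPM after at most 0.15 CPM before injury (8.17 ± 0.55), and cthrc1a, a collagen triple helix repeat protein of injured vessels and fibroblasts, was at 19.8, 100.5 and 27.5 CPM after at most 1.40 CPM (5.98 ± 0.93). Also in this group were rcn3, a calcium-binding protein of the secretory pathway (4.60 ± 0.50), adam8a, a membrane protease (4.35 ± 0.43), lipg, endothelial lipase (7.14 ± 0.93), tubb5, a beta tubulin (5.14 ± 0.69), and glipr2l (4.81 ± 0.60). The remaining one, epor, is taken up with the blood cells.

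Cell cycle genes gave the largest share of called members. Of 26 tested, 18 were higher and 0 lower, 22 did not overlap between the groups, and the median log2 fold change was 2.44, or 2.90 against replicates 3 and 4. Genes for DNA synthesis were among them. The thymidylate synthase gene tyms was at 0.84, 0.46, 0.46 and 1.01 CPM in uninjured and at 14.1, 12.7 and 18.0 CPM in injured ventricles (log2 fold change 4.40 ± 0.38, adjusted p = 0.0186). The mcm2 to mcm7 genes encode the replicative helicase, and all 6 were called higher, by 3.37 ± 0.40 for mcm2 and 3.11 ± 0.30 for mcm3. The ribonucleotide reductase gene rrm2 rose by 3.72 ± 0.71, from 1.62 to 7.08 CPM among uninjured libraries to 17.4, 34.2 and 68.9 CPM.

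Mitotic genes were called as well. The gene cdc20, an activator of the anaphase-promoting complex, was at 2.51, 1.24, 0.76 and 1.34 CPM before and at 10.9, 15.7 and 12.9 CPM after injury (log2 fold change 3.18 ± 0.42, adjusted p = 0.0222). The mitotic cyclin gene ccnb1 changed by 2.41 ± 0.40 and its kinase cdk1 by 2.63 ± 0.47. The widely used proliferation markers pcna (1.82, adjusted p = 0.0686) and mki67 (1.31, adjusted p = 0.156) did not pass against all 4 libraries, although neither overlapped between the groups, and both were called against replicates 3 and 4 (2.72 and 1.88). The sums do not say which cells divided.

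**Figure D3:**
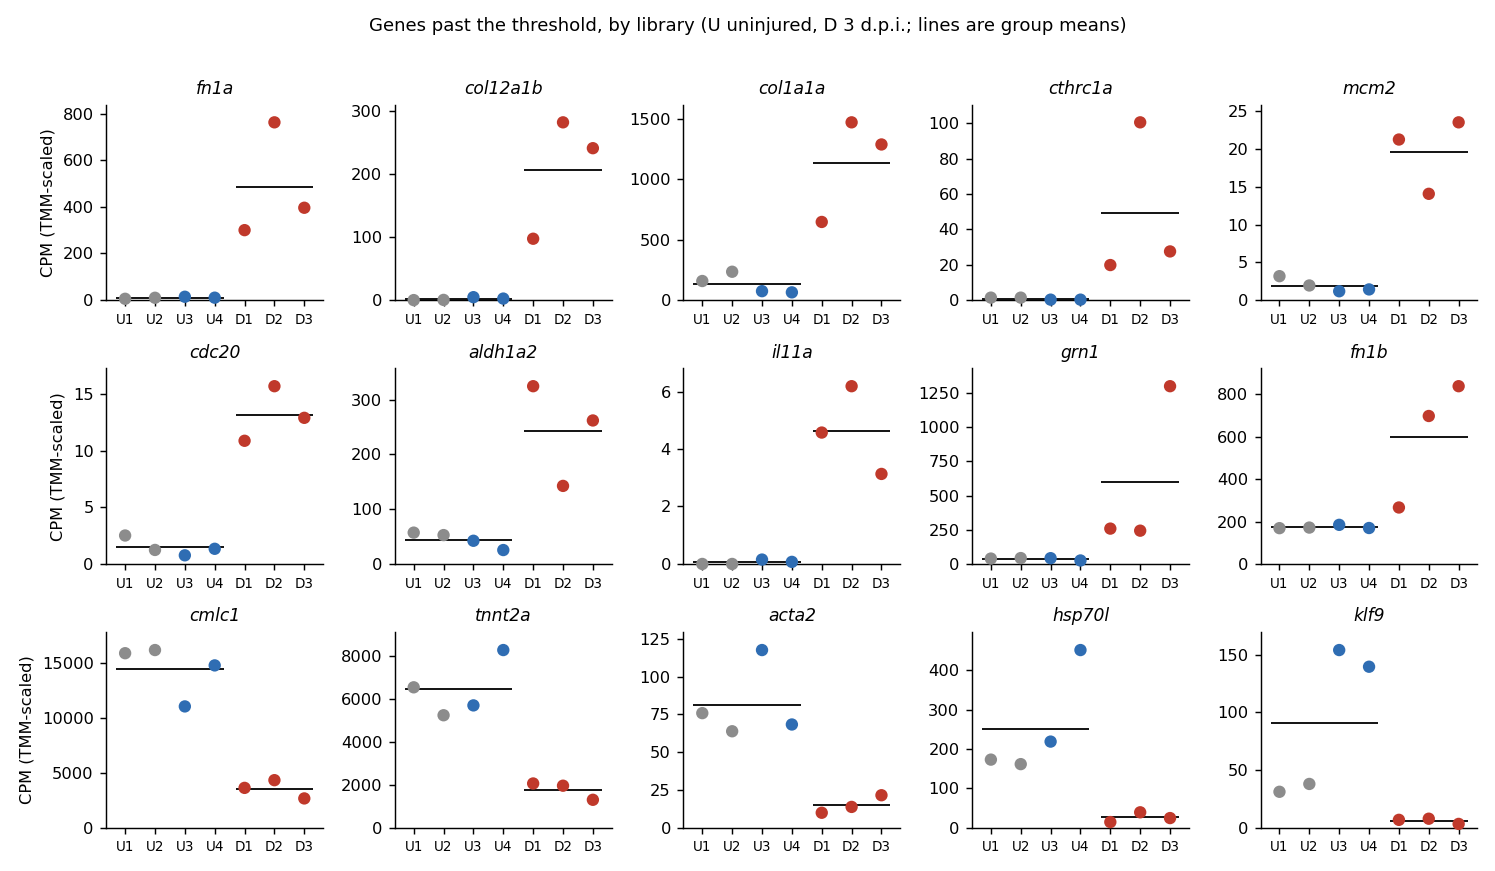
CPM (y axis, linear, from 0) of 15 genes past the threshold in each library (x axis; U1 to U4 uninjured, D1 to D3 3 d.p.i.; black lines are group means). In every panel the injured points lie clear of the uninjured ones, as for fn1a (299.99 to 762 against 5.59 to 14.3 CPM) and cmlc1 (2667 to 4324 against 11017 to 16132 CPM).

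Secreted signals tied to heart regeneration gave 4 higher and 0 lower of 20 tested genes, beside 3.18% and 1.62% of all genes. Against replicates 3 and 4, 10 were higher and 3 lower, beside 16.6% and 15.1% of all genes. The 3 lower calls were thus near the share over all genes. The gene aldh1a2, whose enzyme makes retinoic acid in the activated endocardium and epicardium, was at 57.2, 52.7, 42.3 and 25.4 CPM in uninjured and at 325, 143 and 262 CPM in injured ventricles (log2 fold change 2.45 ± 0.41, adjusted p = 0.027). The interleukin 11 genes il11a and il11b, cytokines that act through gp130, were near the limit of detection before injury, with 5 and 10 UMIs over the 4 libraries. After it they reached 4.57, 6.19 and 3.13 CPM for il11a (6.00 ± 0.79, adjusted p = 0.0222) and 1.71, 2.72 and 1.25 CPM for il11b (3.79 ± 0.74, adjusted p = 0.0381). The leptin gene lepb had 0 UMIs in all 4 uninjured libraries and 811 in the injured ones, at 5.47, 5.86 and 23.8 CPM (adjusted p = 0.0322). Set against a floor of 3 UMIs over the uninjured group, lepb was at least 248-fold higher.

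Other members gave no call against all 4 libraries. The neutrophil chemokine gene cxcl8a was at 24.2, 32.8 and 52.5 CPM after 11.5, 6.19, 0.15 and 0.43 CPM (log2 fold change 3.02, adjusted p = 0.186), without overlap, and was called higher against replicates 3 and 4 (6.88, adjusted p = 0.00609). The vessel growth factor genes angpt1 (-1.20) and vegfd (-1.03) were called lower against replicates 3 and 4, but both overlapped once replicates 1 and 2 were counted. The chemokine gene cxcl12a, a guide for growing coronary vessels, was at 149, 224 and 119.7 CPM after 21.1 to 84.6 CPM (log2 fold change 1.61, adjusted p = 0.0923). The growth factor vegfaa was at 9.43, 11.9 and 10.1 CPM after 18.4 to 25.7 CPM (-0.96, adjusted p = 0.0571), with no overlap, and was called lower against replicates 3 and 4 (adjusted p = 0.018). The cardiomyocyte mitogen nrg1 was at 1.62, 1.44 and 2.84 CPM, within its uninjured range of 1.16 to 5.44 CPM. The heparin-binding growth factor mdka, 1 of the 10 genes with the largest gain in mean CPM, was at 563, 628, 172 and 126 CPM before and at 1087, 4553 and 2261 CPM after injury (2.82, adjusted p = 0.0686), and was called higher against replicates 3 and 4 (4.16, adjusted p = 0.0105).

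Of 20 tested inflammatory cytokines and their targets, 1 was higher and 0 lower, a share near that of all genes, while 9 were higher and 0 lower against replicates 3 and 4 and DESeq2 called 3 higher. The called gene was il34. This gene, which encodes a ligand of the macrophage receptor Csf1r, was at 3.64 to 5.14 CPM in uninjured and at 20.5, 9.11 and 41.1 CPM in injured libraries (log2 fold change 2.46 ± 0.48, adjusted p = 0.0383). The fever cytokine il1b was at 1.96, 6.02 and 4.39 CPM after 0.91 to 1.49 CPM (1.78, adjusted p = 0.0697), and tnfa had 8 UMIs before and 10 after injury and was not tested. In the list of acute phase, complement and clotting genes, 2 of 10 were higher and 0 lower. Among these, the acute phase protein saa was at 9.33, 7.59 and 9.64 CPM after at most 0.56 CPM (5.62 ± 1.01, adjusted p = 0.0323).

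Macrophage markers summed to 352 to 965 CPM in uninjured and to 717 to 2311 CPM in injured libraries, so that the ranges overlapped. Of 12 tested, 2 were higher and 0 lower. The log2 fold change was positive in 10 and negative in 2, and positive in all 12 against replicates 3 and 4. Of the markers by which the study names macrophages, cxcr3.2 was at -0.15 (adjusted p = 0.945) and lgmn at 1.37 (adjusted p = 0.0735). The markers spi1b (0.02), csf1ra (0.03) and cd74a (-0.13) hardly moved against all 4 libraries. The granulin gene grn1 was at 39.4, 43.0, 42.3 and 25.4 CPM and then at 259, 244 and 1301 CPM (log2 fold change 4.00 ± 0.67, adjusted p = 0.028), with injured replicate 3 far above the other 2. The gene mfap4, a macrophage marker in zebrafish, was at 13.1, 32.1 and 48.9 CPM after 2.25 to 6.61 CPM (2.86 ± 0.53, adjusted p = 0.0346). The pore-forming protein gene mpeg1.1 was at 11.2, 7.55 and 20.5 CPM against 0.80 to 8.76 CPM (adjusted p = 0.232), which overlapped.

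Lysosomal genes accompanied the macrophage markers in 2 calls of 21 tested, with 0 lower. The hexosaminidase gene hexb rose from 18.1 to 25.2 CPM in uninjured libraries to 47.4, 52.2 and 95.6 CPM (log2 fold change 1.60 ± 0.32, adjusted p = 0.039), and the progranulin gene grna rose by 1.42 ± 0.31 (adjusted p = 0.0493). Against replicates 3 and 4, 14 of these genes and 6 of the macrophage markers were called higher and 0 lower, beside 16.6% of all genes. The tetraspanin gene cd9b was at 12.7, 32.8 and 69.2 CPM after 0.19 to 7.38 CPM (3.55, adjusted p = 0.0802) and was called against replicates 3 and 4 (2.98, adjusted p = 0.0448).

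Markers of other leukocytes were sparse and uneven. The neutrophil lysozyme gene lyz was at 36.12 and 237 CPM in uninjured replicates 3 and 4 and at most 0.31 CPM in every other library, injured ones included. Of 9 tested granulocyte markers, 0 passed in edgeR, 1 was lower at an unadjusted p under 0.05, where 11.8% of all genes were, and 2 were lower by DESeq2. Against replicates 3 and 4, where lyz could be tested, 6 of 10 were lower and 1, the proteoglycan gene srgn, was higher. The B lymphocyte transcription factor gene pax5 was at 10.1, 0.95 and 1.54 CPM in injured and at most 0.43 CPM in uninjured libraries (log2 fold change 4.12, adjusted p = 0.0708), so that its level was set by injured replicate 1, and cd37, a lymphocyte tetraspanin, had the same order at 14.9, 1.196 and 3.04 CPM (adjusted p = 0.0552). Of 3 tested B lymphocyte markers, these 2 were positive and 1, cd22, was negative. The level of cd22 was 3.45, 1.86, 0.56 and 0.54 CPM in uninjured and 0.31, 0.21 and 2.02 CPM in injured libraries (-0.90, adjusted p = 0.638).

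Interferon-stimulated genes, the antiviral set that the study follows, were higher on average at 3 d.p.i. in all 11 measured members, but 0 passed the threshold in edgeR. Their median log2 fold change was 1.18, or 1.38 against replicates 3 and 4. At an unadjusted p under 0.05, 6 were higher, where 12.4% of all genes were, and DESeq2 called 2, beside 7.04% of all genes. The ubiquitin-like protein gene isg15 was at 12.0, 12.8, 92.1 and 13.6 CPM in uninjured and at 134, 208 and 67.3 CPM in injured ventricles (2.06 ± 0.85, adjusted p = 0.194). The gene rsad2, for the antiviral enzyme viperin, was at 5.87, 4.80, 36.4 and 5.54 CPM and at 58.7, 137 and 21.6 CPM (2.46 ± 0.93, adjusted p = 0.16). Uninjured replicate 3 reached the lower end of the injured range in both.

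In 9 of the 11 genes the highest uninjured library was replicate 3. Every injured library lay above uninjured replicates 1, 2 and 4 in 9 of the 11. That count sets aside the library that was most often highest, and its share over all genes was not computed. In 3 (mxc, stat1a and elof1) every injured library lay above all 4 uninjured ones, as it did in 15.7% of all genes. Leaving uninjured replicate 3 out still gave 0 calls among the 11. Only elof1, a transcription elongation factor gene on the study's list, was called against replicates 3 and 4 (log2 fold change 1.55, adjusted p = 0.0067), from 23.0 and 25.6 CPM to 68.6, 69.9 and 71.9 CPM. The genes mxa, mxb and mxc are similar in sequence, and reads may have been divided among them.

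**Figure D4:**
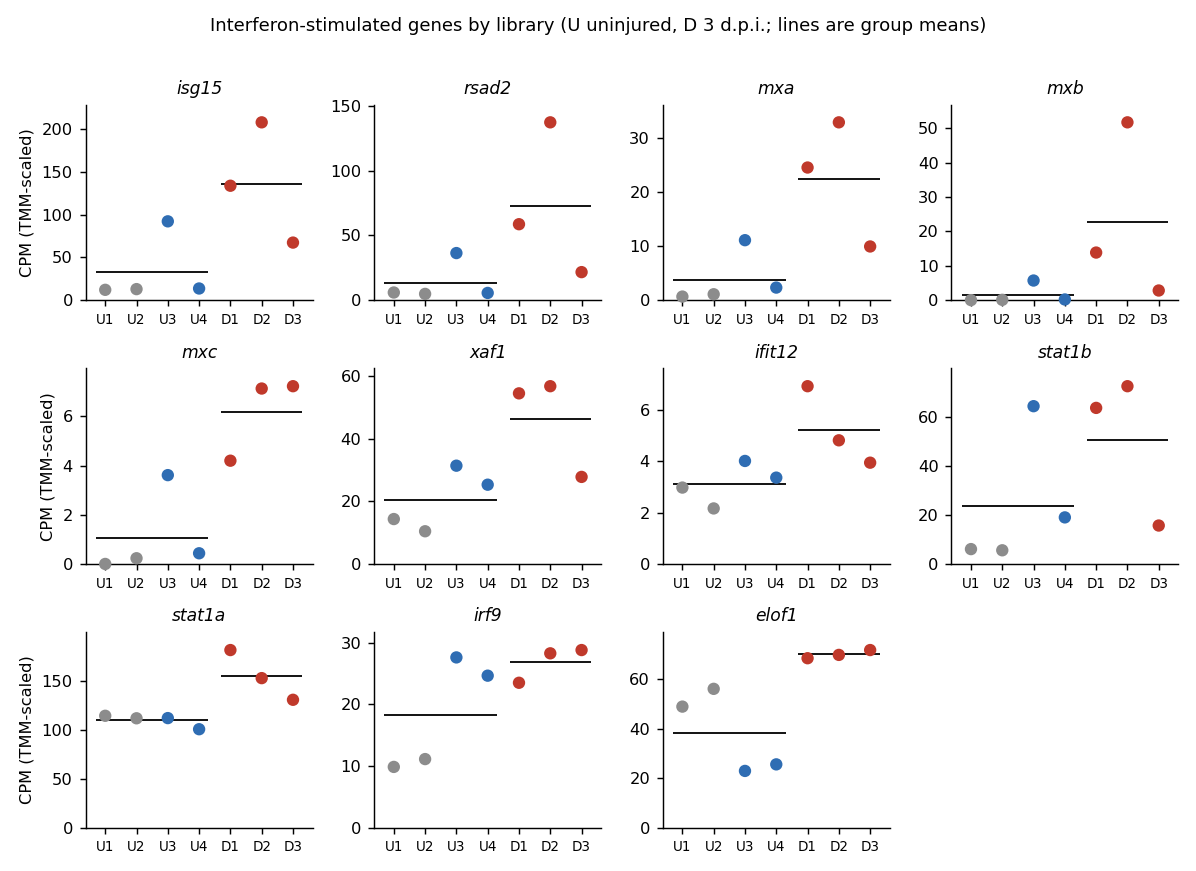
CPM (y axis, linear, from 0) of 11 interferon-stimulated genes in each library (x axis; U1 to U4 uninjured, D1 to D3 3 d.p.i.; black lines are group means). Uninjured replicate 3 is the highest uninjured library in 9 panels, and injured replicate 3 falls to 67.3 CPM for isg15 and 21.6 CPM for rsad2.

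Cardiomyocyte transcripts made up less of the ventricle at 3 d.p.i. Summed over 11 markers, they were at 58770 to 79110 CPM in uninjured and at 15650 to 27190 CPM in injured libraries, without overlap. All 11 had a negative log2 fold change (median -1.49, or -1.38 against replicates 3 and 4), 2 were lower and 0 higher past the threshold, 9 were lower at an unadjusted p under 0.05, and 10 were lower against replicates 3 and 4. The myosin light chain gene cmlc1 was at 15846, 16132, 11017 and 14739 CPM in uninjured and at 3624, 4324 and 2667 CPM in injured ventricles (-2.03 ± 0.28, adjusted p = 0.0222). The cardiac troponin T gene tnnt2a was at 5234 to 8266 CPM before and at 2062, 1958 and 1303 CPM after injury (-1.86 ± 0.29, adjusted p = 0.0258). The atrial myosin gene myh6 was at 1.58, 78.1, 265 and 645 CPM in uninjured and at 7.43, 0.12 and 252 CPM in injured libraries, and nr2f1a, another atrial marker, did not follow it, at 5.50 to 9.44 and 6.06 to 14.0 CPM. The part of retained atrial tissue in these values was not tested.

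Against all 4 libraries, several sarcomere genes and the listed respiration genes that did not pass also had negative values. Over all genes, whatever their role, the largest loss of mean CPM was in zgc:158463. It was at 6942, 7608, 63652 and 59246 CPM in uninjured and at 4422, 3022 and 3650 CPM in injured libraries (log2 fold change -3.22, adjusted p = 0.0903). This gene was called lower against replicates 3 and 4 (-4.03, adjusted p = 0.00609) and differed within the uninjured group between those libraries and replicates 1 and 2. Of the 10 genes with the largest loss, 5 were myl7, cmlc1, myh7l, tnnt2a and tpm4a, all of the sarcomere, and 1 was mb, myoglobin. The light chain gene myl7 was at 27791, 24707, 15654 and 24262 CPM in uninjured and at 9990.5, 9679 and 5093 CPM in injured libraries (log2 fold change -1.48, adjusted p = 0.0524). All 24 tested genes of mitochondrial respiration and fatty acid oxidation had negative values against all 4 libraries (median -0.87), but against replicates 3 and 4 only 17 did (median -0.46), and 3 were called lower, beside 15.1% of all genes. Against all 4 libraries 0 passed in edgeR, 12 were lower at an unadjusted p under 0.05, and 6 were lower by DESeq2.

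Among 13 tested border zone and embryonic cardiomyocyte genes, 1 rose and 1 fell past the threshold, 11 had a negative log2 fold change (median -1.19), DESeq2 called 1 higher and 7 lower, and 1 was higher and 7 lower against replicates 3 and 4. The alpha-actinin gene actn1, expressed in non-muscle cells, was at 7.21 to 17.8 CPM before and at 37.8, 45.4 and 53.2 CPM after injury (log2 fold change 1.78 ± 0.33, adjusted p = 0.0347). The smooth muscle actin gene acta2 was at 75.8, 63.8, 118 and 68.3 CPM and then at 9.95, 13.8 and 21.5 CPM (-2.43 ± 0.39, adjusted p = 0.0258). The cardiac transcription factor gene gata4 was at 14.1 to 49.1 CPM in uninjured and at 8.77, 4.04 and 6.89 CPM in injured libraries (-2.27, adjusted p = 0.0643), and was called lower against replicates 3 and 4 (-2.84, adjusted p = 0.00652). The natriuretic peptide genes nppa (-0.14, adjusted p = 0.864) and nppb (-0.38, adjusted p = 0.659) overlapped between the groups.

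Vessel and epicardial markers gave single calls. Of 8 epicardial markers, wt1b, a Wilms tumour transcription factor, was higher, from 0.31 to 2.75 CPM to 8.37, 29.7 and 14.0 CPM (log2 fold change 3.79 ± 0.79, adjusted p = 0.044). The list was 6 positive and 2 negative, or 4 and 4 against replicates 3 and 4, and tcf21, an epicardial transcription factor, was at -1.10 (adjusted p = 0.375) with overlap. Of 8 mural markers, 4 positive and 4 negative, ndufa4l2a was higher (3.25 ± 0.57, adjusted p = 0.0313). The pericyte gene rgs5a was at 29.7 to 45.8 CPM in uninjured and at 9.55, 24.2 and 15.1 CPM in injured libraries (-1.18, adjusted p = 0.104), without overlap. Of 12 endothelial and endocardial markers, 0 passed in edgeR, 4 were lower at an unadjusted p under 0.05, and DESeq2 called 3 lower. Their summed level was 12850 and 13670 CPM in uninjured replicates 1 and 2, 2374 and 2043 CPM in replicates 3 and 4, and 1422 to 3203 CPM in injured libraries, so their median of -0.89 became 0.06 against replicates 3 and 4.

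Genes of glycolysis and hypoxia gave 0 calls of 20 tested in edgeR, with a median log2 fold change of -0.28, or 0.00 against replicates 3 and 4. At an unadjusted p under 0.05, 2 were higher and 3 lower, beside 12.4% and 11.8% of all genes. DESeq2 called 2 in each direction, beside 7.04% and 7.41% of all genes. Against replicates 3 and 4, 5 were called higher and 2 lower, beside 16.6% and 15.1% of all genes. Of 9 tested cardioprotective genes, 0 passed in edgeR or DESeq2, and 2 were lower at an unadjusted p under 0.05, where 11.8% of all genes were. Against replicates 3 and 4, 1 was called higher and 0 lower. The study reports these genes as induced within cardiomyocytes, whose transcripts made up less of the injured sums. Their level within cardiomyocytes was not tested. Of 6 tested T lymphocyte markers, 0 passed in edgeR or DESeq2, 2 were higher at an unadjusted p under 0.05, and their summed level was 3.00 to 9.38 CPM in uninjured and 8.14 to 9.36 CPM in injured libraries, so that the ranges overlapped.

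Of 22 tested immediate early and heat shock genes, 2 were lower and 0 higher, with a median log2 fold change of -0.81. Against replicates 3 and 4 the median was 0.46, with 3 higher and 3 lower, so the list had no one direction. The inducible chaperone gene hsp70l was at 173, 162, 219 and 451 CPM in uninjured and at 14.6, 39.4 and 24.7 CPM in injured ventricles (log2 fold change -3.26 ± 0.56, adjusted p = 0.0291), and hsp90aa1.2, a stress-induced partner, fell from 151 to 329 CPM to 38.602, 58.6 and 78.1 CPM (-2.13 ± 0.40, adjusted p = 0.0352). Outside the list, hsp70.1 (-3.09 ± 0.45) and hsp70.2 (-2.96 ± 0.47) were among the 10 genes with the largest fall. These hsp70 genes are near-identical copies, so their separate values are uncertain. Ventricles of both groups were warmed during digestion, and the part of that step in the heat shock values was not tested. Immediate early genes such as fosab, which respond within minutes to tissue handling, did not pass: fosab was at 2335, 1673, 337 and 309 CPM in uninjured and at 139, 521 and 553 CPM in injured libraries (adjusted p = 0.335).

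Other genes with the largest fall had varied roles. The Krüppel-like transcription factor gene klf9, a glucocorticoid target, was at 31.2, 38.0, 154 and 139.5 CPM before and at 6.91, 7.88 and 3.37 CPM after injury (log2 fold change -3.90 ± 0.76, adjusted p = 0.0382). The prostaglandin D synthase gene ptgdsb.1 was at 3.71 to 50.2 CPM and then at most at 0.91 CPM (-4.83 ± 0.93, adjusted p = 0.0381). The nucleoside diphosphate kinase gene nme2b.2 was at 141 to 455 CPM and then at 54.0, 33.2 and 16.8 CPM (-3.05 ± 0.62). A transcript listed only as CT027638.1, whose prefix was not among those left out, was at 3864, 4285, 10605 and 10236 CPM in uninjured and at 616, 361 and 405 CPM in injured libraries (-3.98 ± 0.53, adjusted p = 0.0222). The rest were the calcineurin regulator rcan3 (-2.55), the receptor tnfrsf19 (-2.57), the scaffold protein caskin1 (-2.80) and the kinase map3k15 (-2.51).

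Thrombocyte and red cell transcripts were measured together with the tissue. Thrombocyte markers summed to 199 to 274 CPM in uninjured and to 327 to 1043 CPM in injured libraries, without overlap, and most of either sum was fn1b. Without fn1b the summed levels of the groups overlapped. Of the 8 markers, 2 (fn1b and nfe2) were higher without overlap, as were 15.7% of all genes. This second fibronectin gene was at 169, 171, 184 and 169 CPM before and at 266, 697 and 838 CPM after injury (log2 fold change 1.79 ± 0.39, adjusted p = 0.0493). It was the only one of 8 markers past the threshold, and other cells also make fibronectin. The platelet glycoprotein gene gp9 was at 27.6, 17.4, 0.46 and 0.36 CPM in uninjured and at 9.05, 19.3 and 45.7 CPM in injured libraries (1.119, adjusted p = 0.67), and was called only against replicates 3 and 4 (5.93, adjusted p = 0.00936). Of its injured-group UMIs, 92.7% lay in barcodes rich in haemoglobin, described next.

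Haemoglobin RNA differed more within the uninjured group than between the groups. The genes hbaa1, hbaa2, hbba1 and hbba2 encode adult globin chains and share much of their sequence, so only their sum is used. They held 9.83%, 9.27%, 0.0139% and 0.0926% of UMIs outside mitochondrial genes in uninjured libraries and 1.93%, 6.26% and 15.6% in injured ones. The group means were 4.80% ± 5.49 (SD, n = 4) and 7.92% ± 6.97 (SD, n = 3), with p = 0.6 in a two-sided exact permutation test over 35 splits and 0.821 after Benjamini-Hochberg adjustment over 5 single-value measures. Uninjured replicates 1 and 2 lay within the injured range and replicates 3 and 4 far under it. All 12 erythroid markers were called higher against replicates 3 and 4 and 0 against all 4 libraries, where 2 had an unadjusted p under 0.05 and DESeq2 called 1.

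Barcodes rich in haemoglobin made up a larger mean share at 3 d.p.i., but the separation of the groups depended on the settings. A barcode was counted as rich where these 4 genes held at least 10% of its UMIs outside mitochondrial genes, a range of a score and not a cell type. Rich barcodes made up 12.9%, 7.80%, 0.0692% and 0.211% of the barcodes of uninjured libraries and 14.8%, 48.9% and 68.4% of those of injured ones, so that the groups did not overlap, by a narrow margin between uninjured replicate 1 and injured replicate 1. The exact permutation test gave p = 0.0286, the smallest that 35 splits allow, and 0.143 after adjustment over the 5 measures. Against replicates 3 and 4 the smallest possible p was 0.1 by enumeration, and 0.2 was found. The groups overlapped under other settings. Uninjured replicate 1 was at 12.0% and injured replicate 1 at 7.52% with a limit of 30% haemoglobin, and at 19.4% and 16.8% with at most 15% mitochondrial UMIs (p = 0.0571 in the exact permutation test in both). With no filter on barcodes, chosen after seeing the data, uninjured replicates 1 and 2 were at 28.2% and 34.6% and injured replicate 1 at 10.1% (p = 0.2 in the exact permutation test). Between 0 and 7.56% of the barcodes of a library lay near the limit.

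The rich barcodes of the groups differed in depth. Their median was 7718 and 6333 UMIs in uninjured replicates 1 and 2 and 847, 804 and 776 UMIs in the injured libraries, whose other barcodes had medians of 8543, 5644 and 5402 UMIs. The other barcodes of uninjured replicates 1 to 4 had medians of 4076, 3511, 3194 and 5233.5 UMIs, all under those of the injured libraries. With at least 500 genes asked of a barcode, rich barcodes fell to 0.802%, 0.847%, 0% and 0.075% in uninjured and 0.943%, 4.39% and 23.5% in injured libraries. In the other barcodes, haemoglobin held 0.302%, 0.521%, 0.000856% and 0.00217% of UMIs before and 0.0677%, 0.228% and 0.313% after injury (p = 0.943 in the exact permutation test). This level is a share of free RNA and of low-haemoglobin cells together.

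A few called genes had most of their RNA in rich barcodes. Of the 765 called genes, 7 had more than 50% of their injured-group UMIs in rich barcodes, which held 13.2% of the UMIs used from injured libraries: epor, tal2, gfi1b, atf5a, adm2a, slc25a25b and si:dkey-240n22.3. This set was put together after its values were seen, and choosing by UMIs of the injured group favours genes that are high there, so their direction is no separate result. The erythropoietin receptor gene epor was at 1.21, 0.93, 0.25 and 1.01 CPM in uninjured and at 6.00, 25.2 and 48.6 CPM in injured libraries (log2 fold change 4.97 ± 0.80, adjusted p = 0.0266), with 94.2% of its injured UMIs in rich barcodes. With those barcodes left out it was no longer called (2.70, adjusted p = 0.124), and neither were atf5a, gfi1b, slc25a25b and si:dkey-240n22.3. The gene adm2a was still called (4.80, adjusted p = 0.0273), and tal2 was not tested. The set was chosen for RNA in these barcodes, so a smaller change without them follows from the choice. The transcription factor gene tal2 had 2 UMIs before and 818 after injury, a ratio of 376 after scaling, with an exact 95% counting interval of 104 to 3110. The gene gfi1b, a repressor needed for red cell and platelet formation, changed by 3.32 ± 0.63 (adjusted p = 0.0358).

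Set against haemoglobin within rich barcodes, epor and all non-globin erythroid markers were higher in the injured libraries than in uninjured replicates 1 and 2. Haemoglobin held a smaller share of the UMIs of rich barcodes in the injured libraries. Genes outside haemoglobin therefore rose on average on this scale, whatever their role. The gene epor had been chosen by its UMIs in the injured group. Per 10000 haemoglobin UMIs, epor had 0.0932 and 0.0692 UMIs in the uninjured and 3.23, 4.04 and 3.202 UMIs in the injured libraries. The transferrin receptor gene tfr1a, which supplies iron to red cell precursors, had 0.882 and 0.201 UMIs and then 6.68, 9.05 and 6.34. The transcription factor gene gata1a, which drives erythroid differentiation, had 0.330 and 0.176 UMIs and then 1.87, 1.504 and 1.70. Carbonic anhydrase, encoded by cahz and abundant in mature red cells, was closer, at 34.8 and 26.0 against 60.3, 54.5 and 54.6. The markers alas2, slc4a1a, epb41b, hemgn and nt5c2l1 were also higher without overlap. For hemgn the values were 7.47 and 6.16 against 20.9, 17.6 and 19.5, and for nt5c2l1 9.17 and 5.83 against 10.55, 22.7 and 9.78. The scale mattered for some of them. As CPM within rich barcodes, epb41b (319.6 and 231.4 against 363.3, 395.8 and 315.6) and nt5c2l1 (614.7 and 454.5 against 561.9, 1227 and 551.1) overlapped. The other non-globin markers and epor were higher without overlap on that scale too. The share of all genes that were higher without overlap was not computed on either scale. Uninjured replicates 3 and 4 had only 2 and 7 rich barcodes, and the gene list differs between the libraries compared, so injury and gene list cannot be told apart in these values, which were not tested.

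**Figure D5:**
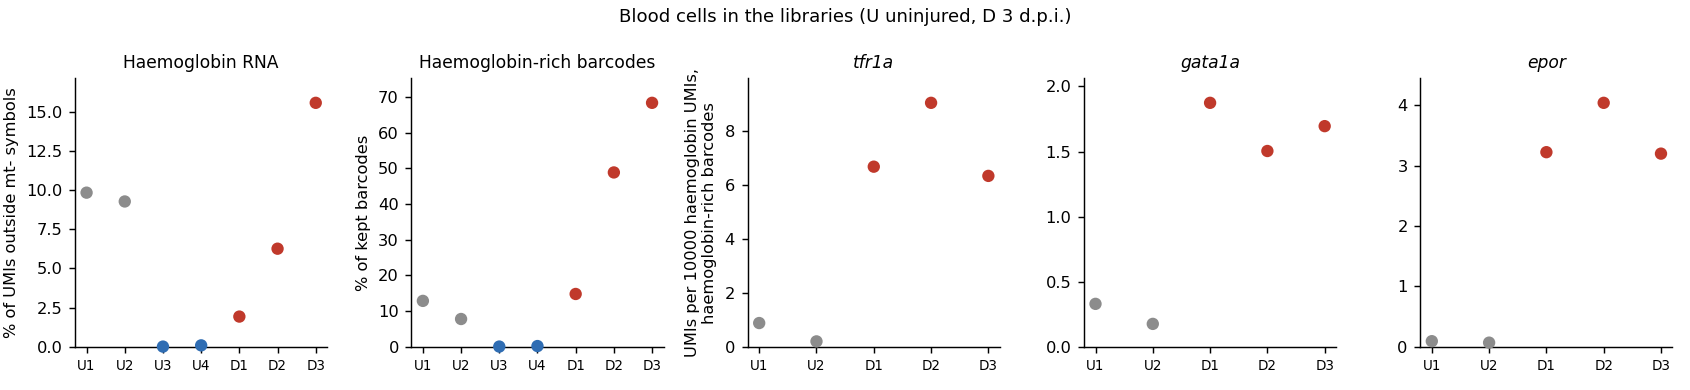
Haemoglobin share of UMIs outside mitochondrial genes and share of haemoglobin-rich barcodes (y axes in percent) in each library (x axis; U1 to U4 uninjured, D1 to D3 3 d.p.i.), and UMIs of tfr1a, gata1a and epor per 10000 haemoglobin UMIs within rich barcodes of 5 libraries. Uninjured replicates 3 and 4 hold at most 0.0926% haemoglobin, and epor is at 0.0692 to 0.0932 in uninjured and at 3.202 to 4.04 in injured libraries.

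Most calls were also made without the barcodes of at least 10% haemoglobin. With them left out, 569 genes (3.63%) were higher and 305 (1.94%) lower, and 490 of the 507 higher and 247 of the 258 lower calls remained. The counts for matrix (10 of 23) and cell cycle genes (18 of 26) were the same, and 3 cardiomyocyte markers were lower. Over all kept barcodes, median depth and the share of mitochondrially encoded genes overlapped between the groups, although depth outside the rich barcodes did not, as given above. The median number of UMIs per barcode was 3194 to 5231 in uninjured and 6448, 1732 and 974 in injured libraries (p = 0.486, exact permutation test). The mitochondrial share of UMIs was 15.8%, 17.1%, 4.73% and 2.00% and then 7.95%, 10.4% and 5.26% (p = 0.657, exact permutation test). That share leaves out the other rows of the mitochondrial genome, whose symbols lack the mt- prefix. These other rows held 6.99%, 15.6%, 34.1% and 33.8% of UMIs in uninjured and 10.9%, 7.56% and 5.24% in injured libraries. Both shares together were higher in every uninjured than in every injured library, a difference that was not tested.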

How the data were processed

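The authors deposited per-sample matrices of raw UMI counts from Cell Ranger (3.1.0 for uninjured replicates 1 and 2, 5.0.0 for the others, per the file headers); the study's methods name a GRCz11 reference. The counts were not normalized. Barcodes with at least 200 genes and at most 40% mitochondrial UMIs were summed per sample. Symbols with the mt- prefix and the other rows of the mitochondrial genome were left out, and gene symbols in every zebrafish list were used. Genes were filtered with filterByExpr, scaled by TMM and tested two-sided with edgeR 4.0.16 (R 4.3.3), the threshold being a Benjamini-Hochberg adjusted p under 0.05. DESeq2 1.42.0, RLE scaling, other filters, other sample sets and leaving out each library were alternatives. Single values were compared by exact permutation tests (numpy 2.4.6), and the exact counting interval came from scipy 1.17.1. Named genes were list members with the smallest adjusted p, genes named by the study, the 10 largest rises and falls by the rule given above, and some of the 10 largest gains and losses of mean CPM. The members and lists were chosen with earlier results of these data known. Kept libraries held 18855694 to 43953500 UMIs. Intervals cover counting error only. Samples from 14 d.p.i. entered only 1 alternative, and medaka samples were not used here. The values of 1 list member are not reported here.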

Additional observations from a re-analysis of the deposited data

Results flagged for a closer look

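Among 75 groups of 4 uninjured values, 8 had 1 library far from the other 3, with a gap to the nearest value, as a share of the group's whole range, above Dixon's 95% critical value. For independent values from a normal distribution, chance gives such a gap in about 1 in 20 groups. The groups here share their libraries and some hold values near 0, so that rate need not hold for them. Uninjured replicate 3 stood out for interferon-stimulated genes, with isg15 at 92.1 CPM (the others at 12.0 to 13.6) and rsad2 at 36.4 CPM (4.80 to 5.87). The same library was high for saa, at 0.56 CPM (0 to 0.0724), and low for map3k15, at 28.0 CPM (45.5 to 48.2). Uninjured replicate 1 was high for rrm2, at 7.08 CPM (1.62 to 1.88), and for adam8a, at 5.03 CPM (2.24 to 2.71), and low for loxl2b, at 5.59 CPM (6.88 to 7.04). Uninjured replicate 4 held the only uninjured UMIs of tal2, at 0.0724 CPM. Groups of 3 were not examined in this way.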

How the results depend on the processing

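A set of 60 called genes named in the text was followed across settings, and all kept their direction wherever they were fitted. With DESeq2 and against uninjured replicates 3 and 4, 60 stayed past the threshold. The count was 56 with RLE scaling, 55 with all 13 zebrafish samples fitted, and 41 with at most 15% mitochondrial UMIs. The set leaves out some called genes of the text. Among those left out, atf5a was not called by edgeR against replicates 3 and 4 (log2 fold change 2.665, adjusted p = 0.0529). The counts of 507 higher and 258 lower genes became 1361 and 1433 with DESeq2, 912 and 838 with all 13 zebrafish samples, 2826 and 2569 against replicates 3 and 4, and 3162 and 2781 with a term for replicates 1 and 2. Without a filter on low counts they were 341 and 110, and with at most 15% mitochondrial UMIs 391 and 162. Leaving out haemoglobin-rich barcodes together with replicates 1 and 2, an alternative chosen after seeing the data, gave 2921 and 2698. The share of higher genes among the calls was 66.3%, against 48.7% with DESeq2, 52.1% with 13 samples and 52.4% against replicates 3 and 4. Leaving out 1 library gave 0 to 110 higher and 0 to 21 lower genes: 110 and 21 without uninjured replicate 1, 1 and 1 without replicate 2, 13 and 3 without replicate 3, 66 and 2 without injured replicate 1, and 0 and 0 without uninjured replicate 4, injured replicate 2 or injured replicate 3. At an unadjusted p under 0.05, edgeR still gave 1376 to 1685 higher and 1124 to 2060 lower genes in those 3 fits. The cause was not tested.

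With the replicate number as a block, 0 genes passed in either direction, with 1712 higher and 1305 lower at an unadjusted p under 0.05. Same-numbered samples deviated together at r = -0.137, 0.0736 and -0.057, so the numbers were not taken as pairs, and not every sample correlated best with its own number.

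Among single values, the difference in median UMIs per barcode, injured minus uninjured, turned from -1087 to 6791 with at least 500 genes per barcode. That setting gave p = 0.0286 in the exact permutation test and 0.0714 after adjustment. The difference in haemoglobin share of the other barcodes, -0.0035 percentage points, became 0.0371 with at most 15% mitochondrial UMIs, 0.201 against replicates 3 and 4, 0.522 with a haemoglobin limit of 30%, and -0.072 to 0.101 with 1 library left out. The difference in mitochondrial share, -2.03 points, became 4.52 against replicates 3 and 4 and -4.66 to 0.384 with 1 library left out; without the gene mt-co3, which only 1 gene list holds, it was -0.624, also chosen after seeing the data. The difference in haemoglobin share, 3.11 points, ranged from -0.709 to 6.11 with 1 library left out.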
